A study of Bos grunniens with 6 samples.

Results

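*ROBO1* (ENSBGRG00000000014) and *ROBO2* (ENSBGRG00000000017) encode roundabout guidance receptors. They are the 2 members examined here, out of 20953 genes with an expression value. They were chosen by gene ID, with the change of their expression and methylation between the ages already known, so their own values are given as a description and without a test. The data come from testis of 3 juvenile yaks (Y6M, 6 months old, before sexual maturity) and 3 sexually mature yaks (Y30M, 30 months old). All 6 animals were healthy males, and no treatment is given for either group. From each yak, an input library of fragmented poly(A) RNA gave the expression, and a second library of the same RNA was immunoprecipitated (IP) with an antibody against N6-methyladenosine (m6A), a methyl mark on adenosines inside mRNA. The tissue was bulk testicular parenchyma, and expression is relative to the whole library. Fewer cells of a type, less RNA per cell and more RNA from other cells therefore cannot be told apart.

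ROBO receptors are single-pass membrane proteins of the immunoglobulin superfamily. They bind the secreted SLIT proteins and pass the signal to the actin cytoskeleton through adaptors, kinases and GTPase-activating proteins, and they are best known for steering growing axons away from the midline of the nervous system. SLIT and ROBO genes are also expressed in reproductive tissues. The m6A mark is placed on mRNA by a methyltransferase complex and is read by proteins that influence splicing, translation and decay.

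In these data, both receptors were higher in the juvenile testis, *ROBO1* at every age well above *ROBO2*. Mean expression of *ROBO1* in Y6M was 3.39 times that in Y30M, and that of *ROBO2* was 7.66 times. *ROBO1* carried m6A peaks in the peak lists of both ages. Over the stretch searched, *ROBO2* had peaks in the Y6M list and none in the Y30M list. Along *ROBO1*, the peak nearest the 3′ end was called at both ages, and peaks towards the 5′ side were called in Y30M alone.

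Expression is given in FPKM, fragments scaled by transcript length and library size. In Y6M replicates 1, 2 and 3, *ROBO1* was at 58.2, 44.3 and 62 FPKM, and in Y30M at 20.2, 10.1 and 18.2 FPKM. The 3 juvenile yaks were all above the 3 mature yaks, and Y30M replicate 2 was the lowest library. The juvenile mean was 54.8 ± 9.29 FPKM (SD, n = 3), and the mature mean 16.2 ± 5.35 FPKM (SD, n = 3). On log2(FPKM + 1) the difference of Y30M minus Y6M was -1.74 (standard error 0.29, limma). Among the genes detected in a library, *ROBO1* stood at percentiles 89 to 92 in Y6M and at percentiles 61.4 to 70.6 in Y30M.

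*ROBO2* was at 6.52, 5.04 and 12.4 FPKM in Y6M replicates 1, 2 and 3, and at 1.51, 0.504 and 1.12 FPKM in Y30M. Again no mature yak reached the lowest juvenile yak, and Y30M replicate 2 was the lowest, as for *ROBO1*. Y6M replicate 3 was well above the other juvenile yaks. The juvenile mean was 7.99 ± 3.90 FPKM (SD, n = 3) and the mature mean 1.04 ± 0.506 FPKM (SD, n = 3), with a difference of -2.08 on log2(FPKM + 1) (standard error 0.36). This scale understates the change of a gene at about 1 FPKM, and with a pseudocount of 0.1 FPKM the difference was -2.83. *ROBO2* stood at percentiles 49.5 to 64.4 of detected genes in Y6M and at percentiles 18.9 to 28.2 in Y30M. The groups did not overlap in 54.1% of the 19477 genes above 0 in at least 1 library, with Y30M the lower in 21.9%, and nothing is read from the separation of the members, which were chosen for it. Of these genes, 6.60% had a lower difference than *ROBO1* and 4.20% a lower one than *ROBO2*.

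The number of fragments behind these values was recovered from the deposited FPKM as the smallest whole numbers that give a gene's 6 values, given the relative depth of the libraries. Common multiples of these numbers would give the same FPKM. *ROBO1* rested on 8851, 7659 and 7784 fragments in Y6M and on 3379, 1802 and 3173 in Y30M. *ROBO2* rested on 894, 785 and 1404 fragments in Y6M and on 227, 81 and 176 in Y30M. The shallowest value, *ROBO2* in Y30M replicate 2, had an exact 95% Poisson interval of 0.401 to 0.627 FPKM, which covers counting error only. The intervals of the other mature yaks were 1.32 to 1.72 and 0.959 to 1.30 FPKM, so that replicate 2 lay below both by more than counting error. For *ROBO2* in Y6M replicate 3, the interval of 11.8 to 13.1 FPKM likewise lay above those of the other juvenile yaks, which ended at 6.97 FPKM.

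**Figure D1:**
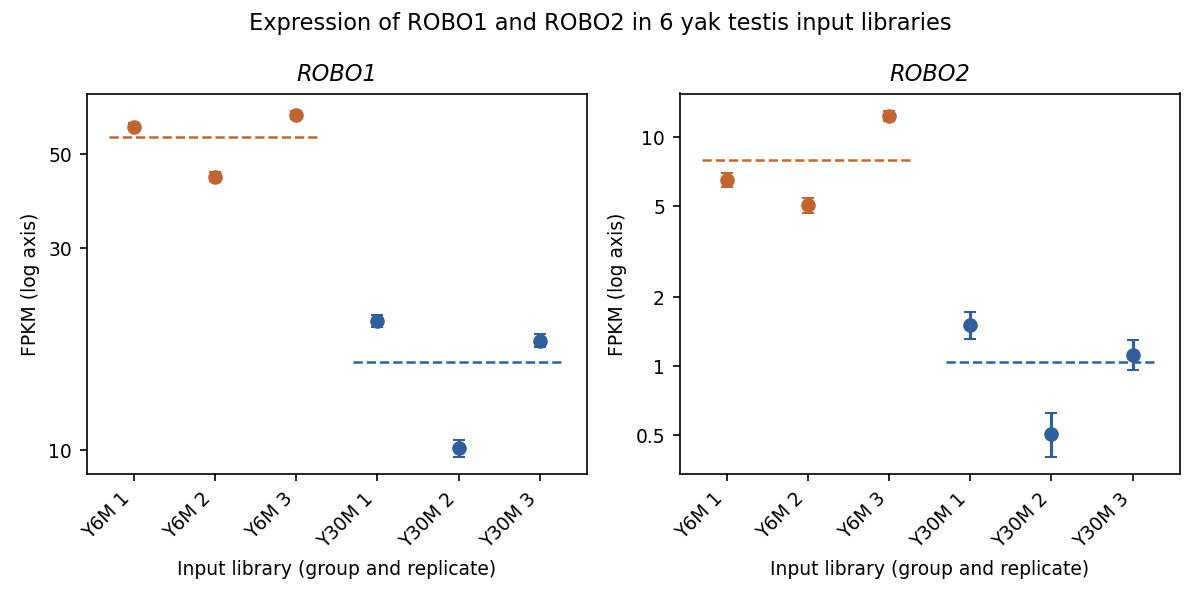
Expression of ROBO1 (left) and ROBO2 (right) in FPKM on log axes, 1 point for each input library of Y6M (orange) and Y30M (blue), with exact 95% Poisson intervals as bars and group means as dashed lines. ROBO1 lies between 44.3 and 62 FPKM in Y6M and between 10.1 and 20.2 in Y30M, and ROBO2 between 5.04 and 12.4 FPKM and between 0.504 and 1.51 FPKM.

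In these libraries the ratio of the receptors was higher in Y30M than in Y6M. FPKM is scaled by length, so the levels of both genes can be compared within a library. *ROBO1* was 8.92, 8.79 and 4.99 times *ROBO2* in Y6M replicates 1, 2 and 3, and 13.4, 20.0 and 16.2 times in Y30M. The ratio averaged 7.57 ± 2.23 (SD, n = 3) in juvenile yaks and 16.6 ± 3.33 (SD, n = 3) in mature ones. All ratios of the mature yaks were above those of the juvenile yaks, and the lowest ratio belonged to Y6M replicate 3, where *ROBO2* was highest. In the mature yaks the ratio rests on *ROBO2* at 0.504 to 1.51 FPKM. The change of the ratio was not tested. How often other pairs of genes separate in this way was not computed, so nothing is read from the separation.

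By their positions in the deposited peak table (genome build LU_Bosgru_v3.0), both genes lie on chromosome 1, *ROBO1* on the plus strand and *ROBO2* on the minus strand. The 3′ side of *ROBO1* faces the 3′ side of *ROBO2*, with 1136180 bp between the nearest peaks of the pair and 0 compared peaks of other genes in between. In the RefSeq annotation of another yak assembly (Bosgru_T2T1.0), used for gene order only, 0 protein-coding genes lie between them. Entries for 2 long non-coding RNA genes and 1 pseudogene fill the gap there, and *GBE1* and *LIPI* are the nearest protein-coding genes on the outer sides.

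The table of compared peaks, called over the libraries of both groups together, listed 5 peaks on *ROBO1* and 2 on *ROBO2*, out of 16318 peaks on 8809 genes. A gene with a peak had a median of 1, and 3.45% of them had at least 5. Fold enrichment is the ratio of IP to input. The peaks of *ROBO1* are numbered here from its 5′ side. Peak 1 (chr1:10382990-10383140) was a single exon block of 151 bp with a fold enrichment of 1.38. Peak 2 (chr1:10627364-10658017) joined 3 exon blocks of 250 bp in all across 30654 bp of genome, at a fold enrichment of 2.40. Both lay far upstream of the others.

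Peak 3 (chr1:10722465-10743255) was spread over 7 exon blocks with 699 bp of exon and had a fold enrichment of 1.77. Only 2.47% of all compared peaks had at least 7 blocks. Peak 4 (chr1:10756539-10756839) was a single block of 301 bp at a fold enrichment of 1.59. Peak 5 (chr1:10760391-10778605), the one nearest the 3′ side, had 4 blocks with 550 bp of exon and the highest fold enrichment of the gene, 2.86. It was also the single *ROBO1* peak with an FDR of at most 0.05 for its own enrichment (FDR = 0.00891), and the FDR of the other 4 was 1.

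The peaks of *ROBO2* were 2 single blocks, 150 bp near the 3′ side (chr1:11914786-11914935) with a fold enrichment of 1.48 and 200 bp towards the 5′ side (chr1:12556078-12556277) with 1.64. Both had an FDR of 1. The median fold enrichment was 1.77 over the *ROBO1* peaks, 1.56 over the *ROBO2* peaks and 2.31 over all compared peaks, of which 69% had an enrichment FDR of at most 0.05 and 27.8% an FDR of 1. By fold enrichment, 6 of the 7 peaks stood between percentiles 5.27 and 54 of the table, and peak 5 of *ROBO1* at percentile 70.1. The peak values carry no replicate error, since the caller took the replicates together, and the reads behind them are unknown.

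**Figure D2:**
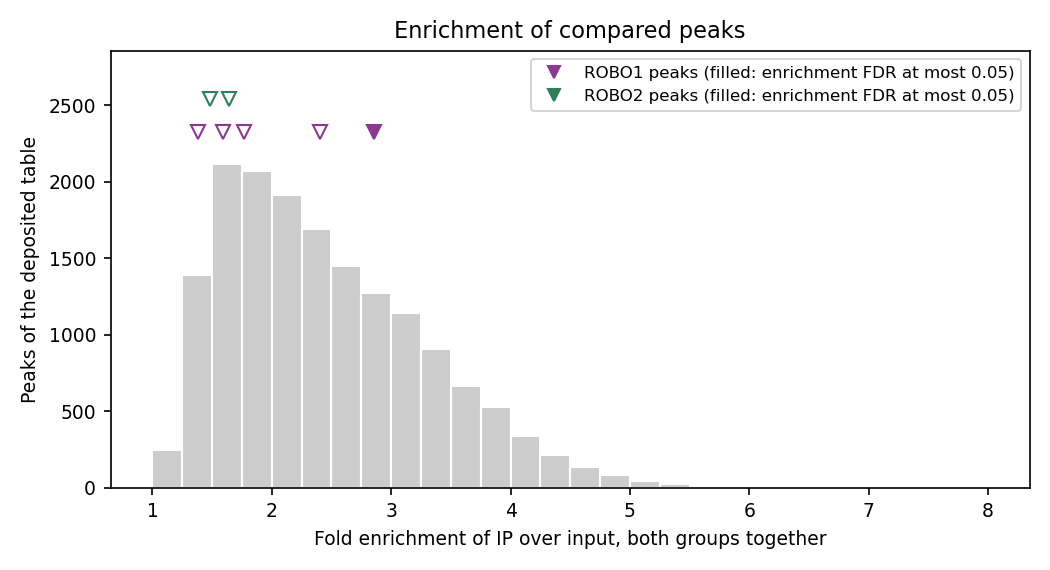
Number of compared peaks (vertical axis) by their fold enrichment of IP over input (horizontal axis, grey bars of width 0.25, 23 peaks above 8 not drawn), with the peaks of ROBO1 (purple) and ROBO2 (green) as triangles. A filled triangle has an enrichment FDR of at most 0.05, which holds for 1 ROBO1 peak at a fold enrichment of 2.86 and for no ROBO2 peak.

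To see at which age these regions were called, the separate peak lists of the groups were used. Each holds 1 set of peaks for the 3 yaks of its group, with spans that run over introns. *ROBO1* had 3 peaks in the Y6M list and 5 in the Y30M list. The 3′ peak was nearly the same in both, at chr1:10760341-10778605 in Y6M and chr1:10760391-10778605 in Y30M. A peak of 7920 bp in Y6M (chr1:10735336-10743255) contained a Y30M peak of 2437 bp (chr1:10737963-10740399). Another Y6M peak (chr1:10746495-10756789) met a Y30M peak of 151 bp (chr1:10756689-10756839) in 101 bp.

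The other Y30M peaks of *ROBO1*, chr1:10286428-10383240 and chr1:10627413-10658117, lay on the 5′ side and overlapped no Y6M peak. They hold the exon blocks of compared peaks 1 and 2, whose own enrichment over input had an FDR of 1. *ROBO1* thus had more called regions at the age at which it was less expressed, though a count of regions is not an amount of m6A. *ROBO2* showed the reverse, with 2 peaks in the Y6M list, chr1:12026348-12026498 and chr1:12556128-12631100, and 0 in the Y30M list. The first of them overlapped no compared peak and was placed with *ROBO2* because it lies between that gene's compared peaks. A listed peak was assigned to a gene if it met the stretch between that gene's outermost compared peaks. Peaks wholly outside that stretch were not counted, in either list.

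By an overlap of at least 1 bp, 3 of 3 Y6M peaks of *ROBO1* had a Y30M partner and 0 of 2 Y6M peaks of *ROBO2* had one. Over chromosomes 1 and 2, which both lists cover, 71.8% of 1289 Y6M peaks and 70.8% of 1284 Y30M peaks overlapped a peak of the other list. When at least 50% of both peaks had to overlap, the 3′ peak was the 1 shared *ROBO1* peak.

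*ROBO2* had no counted peak in the Y30M list, and its RNA was low at that age. Among genes of chromosomes 1 and 2 with a compared peak and a mean of 0.5 to 2 FPKM in Y30M, the range that holds *ROBO2*, 80 of 96 (83.3%) had a Y30M peak on a compared peak. In the range of 10 to 25 FPKM, which holds *ROBO1* in Y30M, 153 of 171 (89.5%) had one. The other Y30M ranges gave 93.9% of 114 genes at 2 to 5 FPKM and 91.5% of 129 genes at 5 to 10 FPKM. At 25 to 100 FPKM it was 83.7% of 153 genes. In Y6M the share was lowest, 77.8% of 54 genes, at 0.5 to 2 FPKM. It was 89.6% of 134 genes at 2 to 5 FPKM and 91.9% of 148 genes at 5 to 10 FPKM. At 10 to 25 FPKM it was 94.4% of 179 genes, and at 25 to 100 FPKM 87.8% of 131 genes. All these genes were taken because they had a compared peak, so the shares do not hold for genes at large. The part of the RNA level in the calling of these peaks was not tested.

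**Figure D3:**
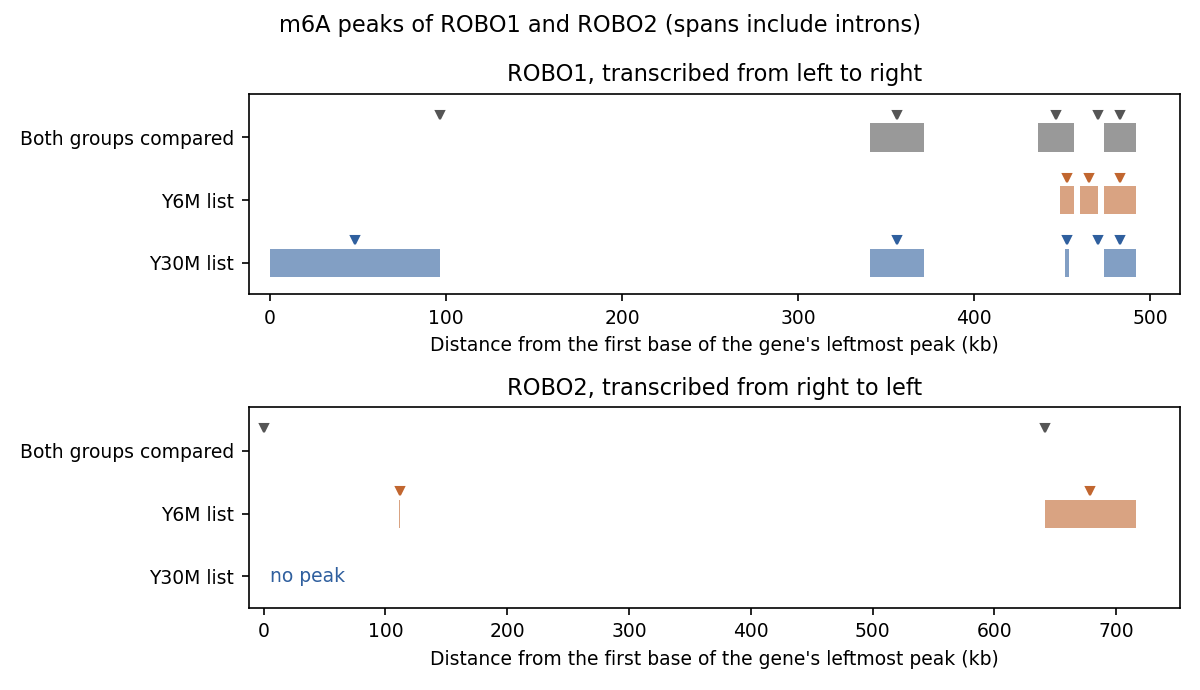
Position of the m6A peaks of ROBO1 (top) and ROBO2 (bottom), as distance in kb from the leftmost peak of the gene, in the compared table (grey), the Y6M list (orange) and the Y30M list (blue); triangles mark the centre of each peak and bars its span with introns. ROBO1 has 3 Y6M and 5 Y30M peaks, of which the rightmost is shared, and ROBO2 has 2 Y6M peaks and no Y30M peak.

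The lists also score adenosines inside each span for their likelihood of methylation, and a score of at least 0.528 is called a site. In *ROBO1*, 80 of 699 scored adenosines (11.4%) were called in Y6M and 383 of 2843 (13.5%) in Y30M, and in *ROBO2* 289 of 1711 (16.9%) in Y6M. On chromosomes 1 and 2 together, 20.0% were called in the Y6M list and 19.7% in the Y30M list. Most of the scored positions lay outside the exon blocks of the compared peaks, 661 in *ROBO1* in Y6M, 2805 in Y30M and 1708 in *ROBO2*. Inside the exon blocks of *ROBO1*, 14 of 38 scored adenosines were called in Y6M and 15 of 38 in Y30M. In those of *ROBO2*, 1 of 3 was called.

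Within the exon blocks of *ROBO1*, called positions lay in peaks 1, 3, 4 and 5. Peak 3 had 6 between positions 10737981 and 10738224 of chromosome 1. The highest score there was 0.689 at position 10738165, in Y6M and in Y30M alike. In peak 4, called positions lay between 10756582 and 10756776. The highest score of peak 4 was 0.609 in Y6M at position 10756716, which scored 0.529 in Y30M. In peak 5, position 10760394 scored 0.696 in Y6M and 0.677 in Y30M, and 3 further positions between 10770978 and 10771091 scored 0.535 to 0.548. The highest score in an exon block of *ROBO1*, 0.752, was at position 10383058 in peak 1, a region in the Y30M list only.

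The scores do not measure a difference between the ages. Of 424 *ROBO1* positions scored in both lists, 409 had the same score, 0 changed their call and the largest difference was 0.08. The strand that was scored is not given. In the Y6M list, 61 pairs of overlapping peaks of genes on opposite strands had the same scored positions in 61 of 61 pairs, and a position cannot be an adenosine on both strands. For *ROBO1* and *ROBO2*, which lie on opposite strands and do not overlap, it is therefore not known whether the scored adenosines are bases of their RNA.

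The other genes of the pathway were taken from a list of 34 SLIT-ROBO genes. A name could be paired with the gene ID for 8 of them only, and the SLIT ligands and *ROBO3* and *ROBO4* were not among these and were not analysed here. The pairing came from tables of the study, most of which list genes that changed, so the list is not independent of the contrast. Of the 8 genes, 3 fell, 1 rose and 4 did not pass the test (limma, Benjamini-Hochberg adjusted p up to 0.05 with at least a 1.5-fold change). Of all 19477 genes tested, 41.2% passed (16.2% fell and 24.9% rose), and of the 2130 tested genes with a name, 52.3% passed (22.1% fell and 30.1% rose). The median difference was -0.05 on log2(FPKM + 1) over the 8 genes and 0.04 over all genes tested.

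Among the binding partners at the cell surface, *DAG1*, which encodes dystroglycan, a matrix receptor that can bind SLIT proteins, fell most. It was at 314, 308 and 305 FPKM in Y6M and at 48.5, 37.0 and 38.7 FPKM in Y30M. The groups lay far apart, with a difference of -2.88 on log2(FPKM + 1) (standard error 0.13, limma, adjusted p = 1.02e-04). *CXCR4*, the receptor of the chemokine CXCL12, whose signal SLIT and ROBO can dampen, rose. It was at 6.29, 8.21 and 10.2 FPKM in Y6M and at 42.4, 29.2 and 23.2 FPKM in Y30M (difference 1.80, standard error 0.27, limma, adjusted p = 0.00420). *FLRT3*, a membrane protein that can bind ROBO1, was at 1.04 ± 0.665 and 2.34 ± 1.47 FPKM (SD, n = 3 each) and did not pass the test (difference 0.66, standard error 0.41).

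Among the cytoplasmic effectors, *SRGAP1*, a GTPase-activating protein that binds the tail of ROBO1, was at 20.5, 20.8 and 26.7 FPKM in Y6M and at 7.18, 3.76 and 7.69 FPKM in Y30M. It fell, by 1.75 on log2(FPKM + 1) (standard error 0.27, limma, adjusted p = 0.00442), with Y30M replicate 2 again the lowest library. *NCK2*, an adaptor that links receptors to actin regulators, was at 47.0, 44.2 and 34.7 FPKM in Y6M and at 17.0, 10.8 and 13.2 FPKM in Y30M. It fell by 1.56 (standard error 0.20, limma, adjusted p = 0.00247), and Y30M replicate 2 was lowest here too.

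The other effectors did not pass the test. *ARHGAP39*, a GTPase-activating protein, had 17.6 ± 2.25 FPKM in juvenile and 17.1 ± 3.97 FPKM in mature yaks, and *ABL2*, a tyrosine kinase, at 3.08 ± 0.220 and 3.01 ± 0.909 FPKM (SD, n = 3 each). *SOS2*, an exchange factor for RAS and RAC, was at 8.08 ± 5.71 and 11.2 ± 8.35 FPKM. Its value was highest in replicate 3 of both groups, 14.7 FPKM in the juvenile and 20.7 FPKM in the mature yak.

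Of 19 genes of the other guidance families, 7 could be paired with an ID, of which 2 fell, 1 rose and 4 did not pass, against 41.2% of all genes tested and 52.3% of those with a name that passed. The median difference was -0.59, beside 0.04 over all genes tested. *UNC5C*, a netrin receptor, fell from 3.21 ± 1.58 to 0.836 ± 0.112 FPKM (SD, n = 3 each; difference -1.14, standard error 0.27, limma, adjusted p = 0.0199), and lost the call without Y30M replicate 1, 2 or 3 (adjusted p between 0.0503 and 0.0601). *SEMA3A*, a secreted semaphorin, fell from 0.686 ± 0.238 to 0.0558 ± 0.0166 FPKM, a difference of -0.67 (standard error 0.13, limma, adjusted p = 0.00943) that dropped to -0.55, under the fold threshold, without Y6M replicate 3. At so low a level the scale matters, and with a pseudocount of 0.1 FPKM the difference of *SEMA3A* was -2.30. It was below the alternative filter of a mean of at least 1 FPKM. *NTN1*, the ligand netrin 1, rose from 0.612 ± 0.175 to 2.39 ± 1.01 FPKM (difference 1.03, standard error 0.26, limma, adjusted p = 0.0264). It kept the call without Y30M replicate 3 and lost it without each of the other libraries in turn (adjusted p between 0.0630 and 0.0874).

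The 4 that did not pass were *SEMA3C*, *PLXNA1*, *EPHA3* and *EPHA7*, with differences between -0.77 and -0.06. *PLXNA1*, a semaphorin co-receptor with 38 ± 7.69 FPKM in juvenile and 25.6 ± 9.85 FPKM in mature yaks (SD, n = 3 each), did pass once replicates were blocked by number (limma, adjusted p = 0.0450) and without Y30M replicate 1 (difference -0.88, adjusted p = 0.0399).

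**Figure D4:**
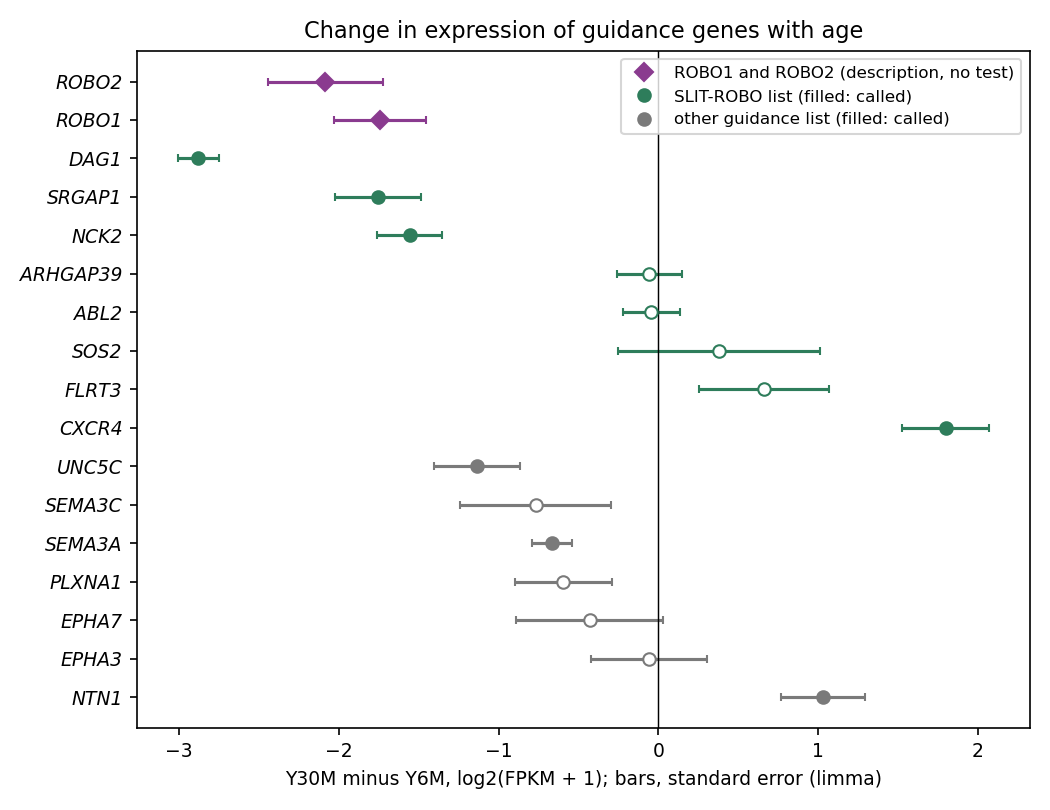
Difference of Y30M minus Y6M on log2(FPKM + 1) (horizontal axis, bars are limma standard errors) for ROBO1 and ROBO2 (purple diamonds, no test), 8 SLIT-ROBO genes (green) and 7 other guidance genes (grey); filled circles passed the test. DAG1, SRGAP1 and NCK2 lie below 0 with the receptors, CXCR4 above 0 at 1.80, and the others of the SLIT-ROBO list did not pass.

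Markers of testis cell types moved between the groups beside the receptors. Of 47 markers on the lists, 8 could be paired with an ID, and 6 of these fell, 1 rose and 1 (*MLH3*) did not pass. Among all genes tested 16.2% fell and 24.9% rose, and among those with a name 22.1% fell and 30.1% rose. With replicates blocked by number, *MLH3* passed too. All 8 have an ID only through the study's tables, 2 through that of expression and 6 through that of methylation, so they are not a sample of the markers. No marker of peritubular myoid cells, fibroblasts, macrophages, spermatogonia or spermatids could be paired. For Sertoli cells, 2 of 7 markers (*SOX9* and *FSHR*) summed to 65.7 to 93.2 FPKM in Y6M and to 19.5 to 35.4 FPKM in Y30M. *LHCGR*, 1 of 6 Leydig cell markers, was at 34.4 to 67.3 FPKM in Y6M and at 1.44 to 5.37 FPKM in Y30M. In tissue sections the authors described interstitial cells as more numerous in the mature testis. They saw no spermatocytes in juvenile sections, and several layers of germ cells, spermatocytes among them, in mature ones. Numbers of cells in sections and the share of a transcript in a library are different measures. For endothelial cells, 3 of 5 markers (*PECAM1*, *CDH5* and *TEK*) summed to 17.4 to 25.8 FPKM in Y6M and to 5.16 to 8.13 FPKM in Y30M. For spermatocytes, 2 of 5 markers (*SYCP3* and *MLH3*) summed to 4.69 to 9.58 FPKM in Y6M and to 11 to 43 FPKM in Y30M. The rise of *SYCP3* lost its call without Y6M replicate 1 or 2 or Y30M replicate 1 or 3, and with no filter on low values. The falling markers that passed were 5 or 6 when 1 library was left out. None of the 8 was at 0 in any library. The part of the cell types in the change of the receptors was not tested.

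The named genes whose log2(FPKM + 1) followed the receptors most closely over the 6 libraries were ranked by Pearson's r, as a measure of likeness that mostly reflects the step between the ages. Of 1988 named genes with a mean of at least 1 FPKM, 396 had an r above 0.9 with *ROBO1* and 339 with *ROBO2*. Nearest to *ROBO1* were *ZKSCAN4* (r = 0.997), *FAM234B* (0.994), *STAT3* (0.994), *LPAR3* (0.993) and *POLR1G* (0.993). *STAT3*, a transcription factor downstream of cytokine receptors, was at 13.4, 11.2 and 17.5 FPKM in Y6M and at 5.94, 2.66 and 4.93 FPKM in Y30M, with replicate 2 lowest in both groups as in *ROBO1*. Nearest to *ROBO2* were *EPM2AIP1* (0.997), *UTRN* (0.994), *PCOLCE2* (0.994), *LDB2* (0.992) and *PTK2B* (0.992). *UTRN*, which encodes utrophin, a cytoskeletal partner of dystroglycan, was at 8.89, 8.04 and 15.6 FPKM in Y6M and at 2.40, 1.63 and 2.58 FPKM in Y30M. As in *ROBO2*, Y6M replicate 3 was highest and Y30M replicate 2 lowest. The r between *ROBO1* and *ROBO2* was 0.972.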

How the data were processed

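The authors trimmed reads with Trimmomatic, removed ribosomal RNA with SortMeRNA and aligned to LU_Bosgru_v3.0 with HISAT2. Which program computed the FPKM is not given in the sources used here. The deposited FPKM of the 6 input libraries were used without further scaling. The authors called peaks with MeTDiff; its deposited table gives, for both groups together, a fold enrichment ratio and log10 p-values and FDR. The table's columns of the authors' comparison between the groups (a log2 fold change, p-value and FDR) were not used. The deposited lists of adenosines hold a prediction score. The Y30M list used here covers chromosomes 1 and 2. Positions in the lists count from 0 and are printed counting from 1.

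Genes above 0 in at least 1 library (19477) were tested on log2(FPKM + 1) with limma 3.58.1 in R 4.3.3, which was checked on simulated data, and p-values were adjusted by Benjamini-Hochberg over all of them. Fragments were recovered with each library's depth relative to Y30M replicate 1 (0.752 to 1.07). All 6 values of each receptor came within 0.01 of a whole number, up to a common factor. Poisson intervals and peak counts used Python 3.11.15 with scipy 1.17.1. Names were paired with 2132 IDs through the study's tables. The members, the lists and the rule for named genes (list genes with an ID, and the 5 named genes nearest to each receptor by Pearson's r) were chosen with earlier results of these data known. Alternatives were the pseudocount, filters, scaling, the replicate block, thresholds, peak overlap and each library left out.

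Samples of the 2 groups share replicate numbers. Deviations from the group means correlated between same-numbered samples at 0.237, 0.304 and 0.630 over 13912 genes with a mean of at least 1 FPKM. Y6M replicate 1 correlated more with Y30M replicate 2 (0.335) than with its own number, and Y6M replicate 2 reached 0.276 with Y30M replicate 1. With Y30M replicate 3, Y6M replicates 1 and 2 correlated at -0.503 and -0.506. Y6M replicate 3 correlated at -0.320 and -0.400 with Y30M replicates 1 and 2. The labels name 6 animals and give no pairs. The main fit left the samples unpaired, and the replicate number entered as a block in an alternative only.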

Additional observations from a re-analysis of the deposited data

How the results depend on the processing

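*ROBO1* and *ROBO2* stayed lower in Y30M under all alternatives run. Without 1 library each, the difference on log2(FPKM + 1) lay between -1.92 and -1.46 for *ROBO1* and between -2.33 and -1.75 for *ROBO2*. With a pseudocount of 0.1 FPKM that of *ROBO2* was -2.83. With the replicate number as a block the standard errors were 0.15 and 0.25, and the block changed no call of the SLIT-ROBO list and added 1 in the other guidance list, *PLXNA1*, and 1 among the cell type markers, *MLH3*. The 4 calls of the SLIT-ROBO list were 4 under each alternative, while the other guidance list had 1 or 2 in place of 3 when 1 library was left out, 2 with a mean of at least 1 FPKM and 2 with a fold change of at least 2. The cell type markers had 5 or 6 calls in place of 7 without 1 library, 5 with no filter, 6 with TPM and 5 with a fold change of at least 2. Rescaling each library to a common FPKM sum (TPM) moved the median difference of all genes from 0.04 to 0.11, and *ROBO1* was at -1.58 there. Signs turned only in genes that did not pass the test. With TPM, *ARHGAP39* was at 0.12, *ABL2* at 0.10 and *EPHA3* at 0.052. Without 1 library, *ARHGAP39* lay between -0.20 and 0.13, *ABL2* between -0.22 and 0.067, *EPHA3* between -0.31 and 0.26 and *SOS2* between -0.14 and 0.86. Requiring 50% of both peaks to overlap left 1 shared *ROBO1* peak in Y6M and 1 in Y30M. With a score of at least 0.6, the called share was 3.72% (Y6M) and 4.96% (Y30M) in *ROBO1* and 7.19% in *ROBO2*. In exon blocks only, an alternative chosen after seeing the data, it was 36.8%, 39.5% and 33.3%. The alternative by sequence context was not run. The fold enrichments have no replicate error. The paper reports the amount of sequence obtained, but the depth of each IP library was not examined here.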
